A study of Rattus norvegicus with 6 samples.

Results

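The genes examined here encode proteins of the postsynaptic side of brain synapses: scaffolds that hold receptors in place, adhesion molecules that reach across the cleft, and the signalling and actin-linked proteins attached to them. A list of 30 gene symbols defined the set, and all 30 were found among the 22062 genes of the deposited table. For 29 of them the spelling was the same, and LRRTM1 was written in capitals there and matched without regard to case. All 30 passed the expression filter of the test, which kept 12441 genes.

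RNA was sequenced from the hippocampus of Sprague Dawley rats. Single prolonged stress (SPS), with which features of post-traumatic stress disorder are modelled in rodents, was applied to one group: restraint for 2 hours, a swim of 20 minutes at 24 °C with 15 minutes of rest, then anaesthesia to loss of consciousness and return to the cage. Control rats stayed unhandled in their home cages. There were 3 SPS and 3 Control samples, numbered 1 to 3 in each group. The labels give neither age, sex nor the time between stress and tissue collection, and do not state whether every sample came from its own rat. The p-values therefore cover the spread between these samples, which may be technical.

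Excitatory synapses carry a dense protein layer under the membrane. In it the MAGUK proteins encoded by the Dlg genes bind receptors and the tails of adhesion molecules, the SAPAP proteins encoded by the Dlgap genes bind the MAGUKs, and Shank proteins join the SAPAPs to Homer and to actin. Neuroligins and leucine-rich repeat proteins bind presynaptic partners such as neurexins. Inhibitory synapses use a different scaffold, gephyrin (Gphn). In the hippocampus this machinery is known for its part in spine structure and synaptic plasticity.

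The shallowest library, SPS replicate 2, held 4081184 reads and the deepest, Control replicate 1, held 11838769. SPS replicate 2 stood apart from the other libraries. Its summed level of 6 choroid plexus markers was 32950 CPM (reads per 1000000 reads of the library), against 37.4 to 37.7 in the other SPS libraries and 25.1 to 135.8 in Control. It also had the highest summed level of 8 oligodendrocyte markers, 30330 CPM, against 12730 and 15380 in the other SPS libraries and 8519 to 12960 in Control. The 8 general neuronal markers summed to 3300 CPM there, the lowest of the 6 libraries, against 7297 and 8948 in the other SPS libraries and 5686 to 9646 in Control. In bulk tissue fewer cells of a type and less RNA per cell cannot be told apart. All 8 neuronal markers and all 6 markers of hippocampal fields had a row in the table, and Spink8 was the field marker with 0 reads in some library. The field markers summed to 748 to 923 CPM in SPS and 1014 to 1281 CPM in Control, ranges that did not overlap. Wfs1 alone was at 645, 512 and 378.5 CPM in SPS and 1043, 820 and 517 CPM in Control, which overlapped. Prox1 ranged from 5.68 to 437 CPM between libraries. Of the 5 tested, 2 had a positive and 3 a negative fold change, with a median of −0.02.

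No gene of the set passed the test between SPS and Control. By edgeR's quasi-likelihood test on group, with adjustment over 12441 genes, 0 of 30 passed, and the adjusted p was 1.00 for each. The background was the same: 0 of 12441 genes, or 0%, passed. At an unadjusted p under 0.05 there were 0 of the 30 genes, where 42 of all genes tested, or 0.338%, were below that value. DESeq2 and limma on log2(FPKM + 1) likewise called 0 of the 30 at either threshold. The log2 fold changes (SPS minus Control) lay between −0.64 for Lrfn2 and 0.41 for Homer3, with a median of −0.15 beside −0.02 for all genes tested. Their standard errors (SE) were 0.30 to 1.72, with a median of 0.55, and the median was 0.24 with the replicate number as a block. For 26 of 30 genes the difference between group means on the log2 scale was smaller than the spread (SD) within groups. Dlg1, Dlgap3, Dlgap4 and Lrfn2 were the exceptions. The share over all genes tested was not computed, so this count does not set these genes apart.

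**Figure D1:**
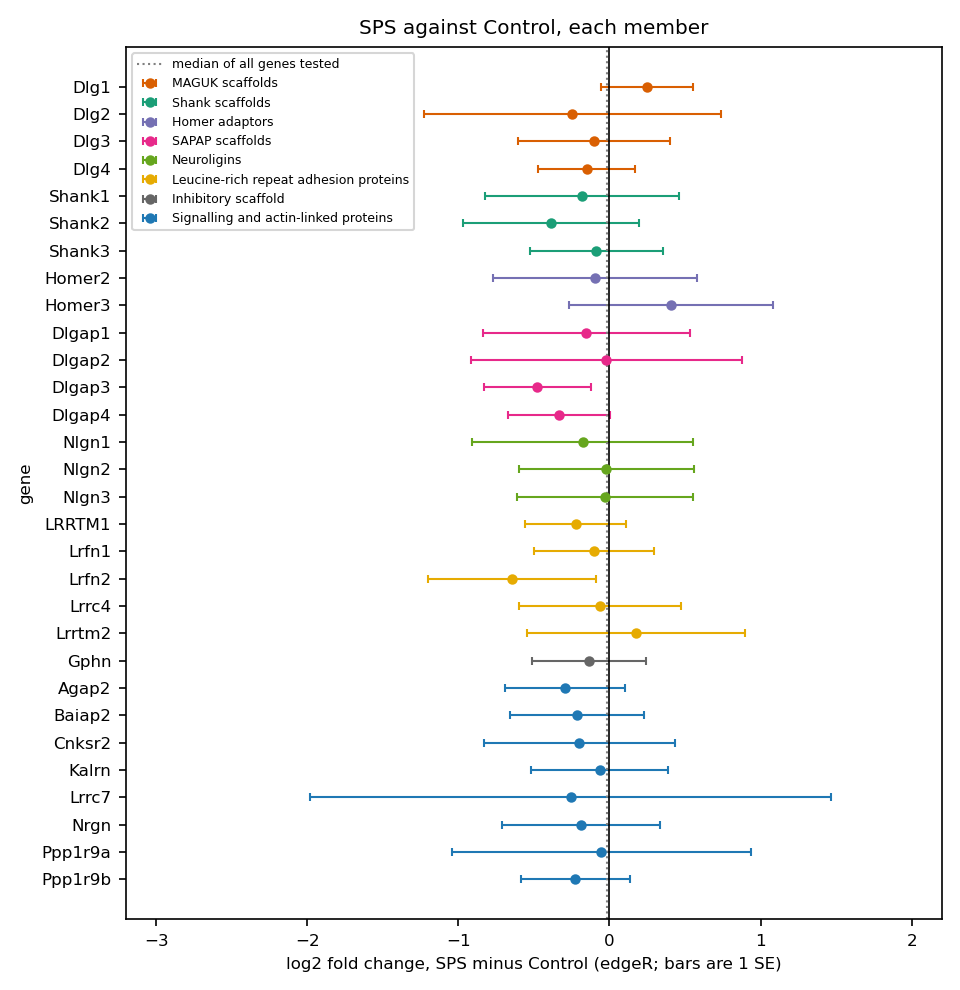
Log2 fold change of each gene, SPS minus Control, on the horizontal axis, from edgeR on 3 SPS and 3 Control libraries. Points are estimates, bars are 1 SE, colours mark the role, and the dotted line is the median of all genes tested (−0.02). Estimates run from −0.64 (Lrfn2) to 0.41 (Homer3), and the widest bar belongs to Lrrc7 (SE 1.72).

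The sign of the fold change was negative for 27 of 30 genes, against 52.1% of all genes tested, and positive for 3 (Dlg1, Homer3 and Lrrtm2), against 47.9%. SPS replicate 2 weighed on these signs. That library held the lowest CPM of the 6 for 25 of the 30 genes, or 83.3%, where it was the lowest for 33.2% of all genes tested. Without it 22 of the 30 fold changes were positive and the median was 0.16. Leaving out Control replicate 3 also turned the median, to 0.23 with 21 positive. With both libraries numbered 2 left out, 22 of the 30 fold changes stayed negative or became so, and the median was −0.08. Most neuronal markers moved with the set in SPS replicate 2. Of the 8, 7 were lowest there, and Eno2 was not, at 84.5 CPM against 29.5 to 102.5 CPM elsewhere. The median deviation from each gene's mean of 6 libraries was −0.88 on the log2 scale for the 30 genes and −0.88 for the 8 neuronal markers. It was 1.07 for the 8 oligodendrocyte markers. The oligodendrocyte markers were also higher in SPS in each pair, all 8 of them, with median log2 ratios of 0.27, 1.69 and 0.40 in pairs 1 to 3 and a median log2 fold change of 0.90. The part of cell composition in the result was not tested.

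**Figure D2:**
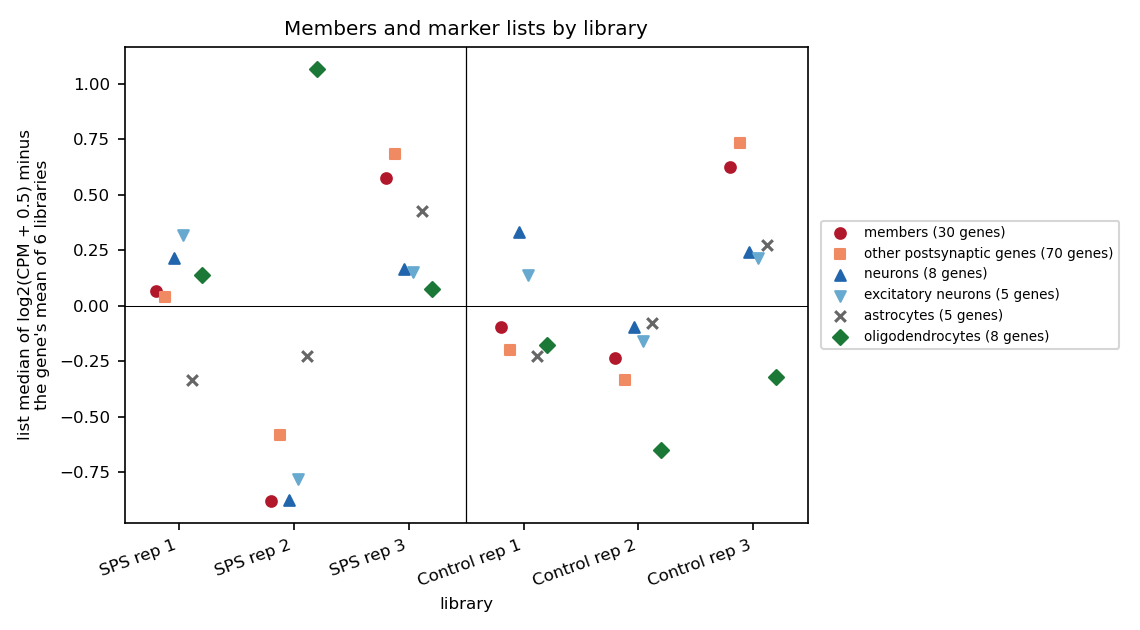
Median level of each gene list by library, as log2(CPM + 0.5) minus each gene's own mean over 6 libraries, with SPS libraries on the left and Control libraries on the right. The 30 genes (filled circles) stood at −0.88 in SPS replicate 2, together with the neuronal markers, and at 0.58 in SPS replicate 3 and 0.63 in Control replicate 3, where neuronal markers stood at 0.17 and 0.24.

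Levels between genes were compared as FPKM, which corrects the fragment count for the length of the transcript and the size of the library. Nrgn, which encodes neurogranin, a small calmodulin-binding protein of dendritic spines, was the most abundant of the set and ranked 24 of 22062 genes by mean FPKM. Its level was 1177 ± 463 FPKM in SPS and 1306 ± 789 FPKM in Control (mean ± SD, n = 3 each). Agap2, Dlg4 and Ppp1r9b followed at 319, 299.9 and 294 FPKM on average over the 6 libraries. These 3 averages lay closer together than the SD of each between SPS libraries, which was 45.5 FPKM or more. At the low end, Homer2 averaged 9.22 ± 4.73 FPKM in SPS and 9.56 ± 6.64 FPKM in Control, and Lrfn2 7.56 ± 4.24 FPKM in SPS and 11.8 ± 0.34 FPKM in Control. The median over the set was 48.0 FPKM. From 689 reads for Homer2 to 79872 for Nrgn stood behind these values over the 6 libraries.

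MAGUK scaffolds gave 3 negative fold changes of 4, and 0 of the 4 passed the test. Dlg4, the main scaffold of mature excitatory synapses (ENSRNOG00000018526, chromosome 10, 56627410 to 56653599 as the deposited table gives it), was at 974, 659 and 1033 CPM in SPS replicates 1 to 3, against 978, 874 and 1109 CPM in Control replicates 1 to 3. The groups overlapped, and SPS replicate 2 was the low sample. Its log2 fold change was −0.15 ± 0.32 (SE). Dlg1, a family member that also takes part in receptor trafficking (ENSRNOG00000038597, chromosome 11, 72163748 to 72378895), was at 79.8, 74.8 and 76.3 CPM in SPS and 52.8, 75.9 and 65.8 CPM in Control. It had the smallest SE of the set, 0.30, beside a fold change of 0.25, and the groups overlapped through Control replicate 2. Dlg3, the member on the X chromosome, was at 351, 126 and 298 CPM in SPS and 336, 148 and 349 CPM in Control, low in both libraries numbered 2. Dlg2, which gathers receptors and channels at the postsynaptic membrane, varied most in its family, at 94.995, 44.0 and 353 CPM in SPS and 48.3, 91.2 and 444 CPM in Control. Here the libraries numbered 3 were high in both groups.

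The Shank scaffolds all had negative fold changes, −0.18 for Shank1, −0.39 for Shank2 and −0.09 for Shank3, each smaller than its SE (0.64, 0.58 and 0.44). Their median of −0.18 was 0.14 without SPS replicate 2, 0.22 without Control replicate 3 and −0.89 without SPS replicate 3. Shank1 (ENSRNOG00000019207, chromosome 1, 100297151 to 100344377) was at 658, 431 and 1604 CPM in SPS and at 506, 736 and 1810.1 CPM in Control. Shank3, known for its link to autism-related disorders in humans, was at 321, 258 and 608 CPM in SPS and 339.8, 331 and 589 CPM in Control. In both genes the libraries numbered 3 were the highest of their group. Shank2 was the scarcest of the family by FPKM and lay at 35.4, 22.2 and 64.5 CPM in SPS and 22.5, 54.5 and 83.0 CPM in Control.

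Counts and FPKM of Shank2 did not move together. By the definition of FPKM, the ratio of count to FPKM would follow the transcript length assigned in quantification. The quantification tool is not given in the sources used here, and this reading was not tested. For Shank2 the ratio varied 3.44-fold between libraries after scaling to each library. Relative to its median, the ratio was 1.15, 0.57 and 0.85 in SPS and 1.95, 0.68 and 1.19 in Control. The ratio varied at least 1.5-fold for 3 of the 29 genes of the set with enough reads, Shank2, Nlgn1 (2.05-fold) and Shank3 (1.72-fold), and for 3.88% of all genes with at least 20 reads in every library. For these genes a difference in FPKM may hold a change of assigned length as well as of reads. On the FPKM scale, log2(FPKM + 1), the difference of Shank2 was 0.14 and that of Nlgn1 was 0.16, against −0.39 and −0.18 from the reads.

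Homer adaptors tie Shank to metabotropic glutamate receptors and calcium stores. Homer3 (ENSRNOG00000020229, chromosome 16, 20881517 to 20890949) had the highest fold change of the set, 0.41 ± 0.68 (SE). It was at 63.1, 41.7 and 22.5 CPM in SPS and 56.5, 9.23 and 29.9 CPM in Control. The low value of Control replicate 2 rested on 52 reads, and without that library the fold change was −0.03. Homer2 was at 10.1, 15.3 and 29.996 CPM in SPS and 8.84, 13.7 and 36.7 CPM in Control, with the libraries numbered 3 on top in both groups. Homer1, the third gene of this family and no member of the set, was at 46.2, 32.4 and 84.4 CPM in SPS and 32.0, 44.0 and 98.4 CPM in Control, a log2 fold change of −0.09 ± 0.55 (SE).

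SAPAP scaffolds had negative fold changes in all 4 genes, with a median of −0.24. This median was 0.04 without SPS replicate 2, 0.18 without Control replicate 3 and −0.77 without SPS replicate 3. Dlgap3, a SAPAP whose loss in mice is known to cause compulsive grooming (ENSRNOG00000014302, chromosome 5, 145257713 to 145304536), had the smallest p of the set. It was at 248, 199 and 359.6 CPM in SPS and 295, 437 and 391 CPM in Control. Each SPS library lay below the Control library of its number, but the ranges overlapped. The log2 fold change was −0.48 ± 0.35 (SE), and edgeR gave an unadjusted p = 0.217 and an adjusted p = 1.00. Without SPS replicate 2 it was −0.30. Dlgap4 was at 188, 102 and 146 CPM in SPS and 179, 189 and 182 CPM in Control, where the 3 Control values were close together and SPS replicate 1 lay among them. Its fold change of −0.33 became −0.13 without SPS replicate 2. The long genes Dlgap1 and Dlgap2 were highest in the libraries numbered 3. Dlgap1 was at 368, 169 and 715 CPM in SPS and 269.8, 234 and 889.9 CPM in Control. Dlgap2 was at 39.5, 11.1 and 95.4 CPM in SPS and 20.4, 20.9 and 107 CPM in Control.

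Neuroligins had fold changes close to 0 beside their errors. Nlgn1, found mainly at excitatory synapses (ENSRNOG00000032576, chromosome 2, 111057290 to 111793326), was at 91.7, 31.7 and 172 CPM in SPS and 73.7, 48.8 and 213 CPM in Control, a log2 fold change of −0.18 ± 0.73 (SE). Nlgn2, the neuroligin of inhibitory synapses (ENSRNOG00000015430, chromosome 10, 56431572 to 56444847), was at 222, 99.5 and 415 CPM in SPS and 203, 156 and 388 CPM in Control. Nlgn3, present at both kinds of synapse, was at 165, 68.3 and 296 CPM in SPS and 134, 126 and 282 CPM in Control. All 3 were lowest in SPS replicate 2, and in each group the library numbered 3 was the highest. The fold changes of Nlgn2 and Nlgn3 were −0.02 ± 0.58 and −0.03 ± 0.58 (SE). The table gives Nlgn3 the same span as Med12, Il2rg and Foxo4, so its reads may include some of neighbouring genes.

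Among the leucine-rich repeat adhesion genes, Lrfn2 was the only one of the 30 genes whose groups did not overlap. Lrfn2 encodes a synaptic adhesion protein that binds the MAGUK scaffolds (ENSRNOG00000011803, chromosome 9, 13845756 to 13877130). It was at 26.8, 6.95 and 30.2 CPM in SPS and 33.3, 31.8 and 35.0 CPM in Control. All SPS values were below all Control values, as in 1.4% of all genes tested. The log2 fold change was −0.64 ± 0.56 (SE), and edgeR gave an unadjusted p = 0.283 and an adjusted p = 1.00. With the replicate number as a block it was −0.85 (adjusted p = 0.967). The 6.95 CPM of SPS replicate 2 came from 30 reads, and without that library the fold change was −0.23. Its relative Lrfn1 was at 32.4, 22.5 and 46.5 CPM in SPS and 32.4, 33.0 and 43.6 CPM in Control. LRRTM1, a neurexin ligand of excitatory synapses, was at 89.1, 53.9 and 72.2 CPM in SPS and 99.5, 75.6 and 76.1 CPM in Control. It was lower in SPS within each number, and the groups overlapped. Lrrtm2, another neurexin ligand, was at 64.8, 32.6 and 161 CPM in SPS and 45.5, 38.0 and 146 CPM in Control. Lrrc4, a ligand of netrin-G proteins, was at 139, 47.7 and 182 CPM in SPS and 139, 79.0 and 168 CPM in Control. The table gives Lrrtm2 the same span as Ctnna1 and Lrrc4 the same span as Snd1, each on the opposite strand, and the use of strand in counting is not given in the sources used here.

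Gphn, the scaffold that clusters glycine and GABA-A receptors (ENSRNOG00000028366, chromosome 6, 101532517 to 101859164), was at 77.9, 42.6 and 95.02 CPM in SPS and 74.3, 74.5 and 88.5 CPM in Control. SPS replicate 2 was low and the other 5 libraries lay close together. The log2 fold change was −0.14 ± 0.38 (SE), and 0.13 without SPS replicate 2.

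All 8 signalling and actin-linked genes had negative fold changes, with a median of −0.21 and none past the test. The median was 0.12 without SPS replicate 2, 0.19 without Control replicate 3 and −0.52 without SPS replicate 3. Agap2, a GTPase-activating protein with a role in phosphoinositide signalling, was at 1749, 885 and 1892.5 CPM in SPS and 2086, 1380.3 and 2081 CPM in Control. Ppp1r9b, which encodes spinophilin, a spine protein that targets a phosphatase to actin, was at 1346, 923 and 1663 CPM in SPS and 1487, 1210.2 and 1905 CPM in Control. Both were lower in SPS within each number while their groups overlapped. With the replicate number as a block, Agap2 had the smallest p of the set, at a fold change of −0.34 ± 0.17 (SE), where edgeR gave an unadjusted p = 0.0853 and an adjusted p = 0.967. Kalrn, a guanine nucleotide exchange factor of dendritic spines, was at 415, 292 and 611 CPM in SPS and 308, 349.9 and 719.8 CPM in Control. Baiap2, an adaptor protein that binds actin regulators, was at 132, 71.3 and 181 CPM in SPS and 130.3, 110.2 and 205 CPM in Control. Cnksr2, a scaffold of Ras signalling at the synapse, was at 277, 82.4 and 415 CPM in SPS and 235, 174 and 479.9 CPM in Control. In these last 3 genes SPS replicate 2 was the lowest library and Control replicate 3 the highest.

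The other 3 genes of this group differed by more than 3-fold between libraries, as did Cnksr2 (5.82-fold). Nrgn (ENSRNOG00000010688, chromosome 8, 40015048 to 40023193) was at 2001, 1689.7 and 889 CPM in SPS and 2966, 1303 and 959 CPM in Control, lowest in the libraries numbered 3. Ppp1r9a, which encodes neurabin, the actin-binding relative of spinophilin (ENSRNOG00000008869, chromosome 4, 29978738 to 30241911), was at 68.3, 39.1 and 239 CPM in SPS and 25.5, 49.5 and 285 CPM in Control. Its log2 fold change was −0.05 ± 0.99 (SE), and 0.27 with the replicate number as a block. Lrrc7, which encodes densin, a postsynaptic protein that binds calcium/calmodulin-dependent kinase (ENSRNOG00000011980, chromosome 2, 264910593 to 265300868), was at 52.1, 0 and 327 CPM in SPS and 32.7, 37.6 and 383 CPM in Control. Both libraries numbered 3 stood far above the rest. The 0 of SPS replicate 2 was listed as 0 in the count and in the FPKM column, beside 212 to 1820 reads in the other 5 libraries. Whether the 0 of Lrrc7 is a failed estimate was not tested. Its fold change of −0.26 ± 1.72 (SE) depends on how a 0 is treated and was 0.33 without that library.

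**Figure D3:**
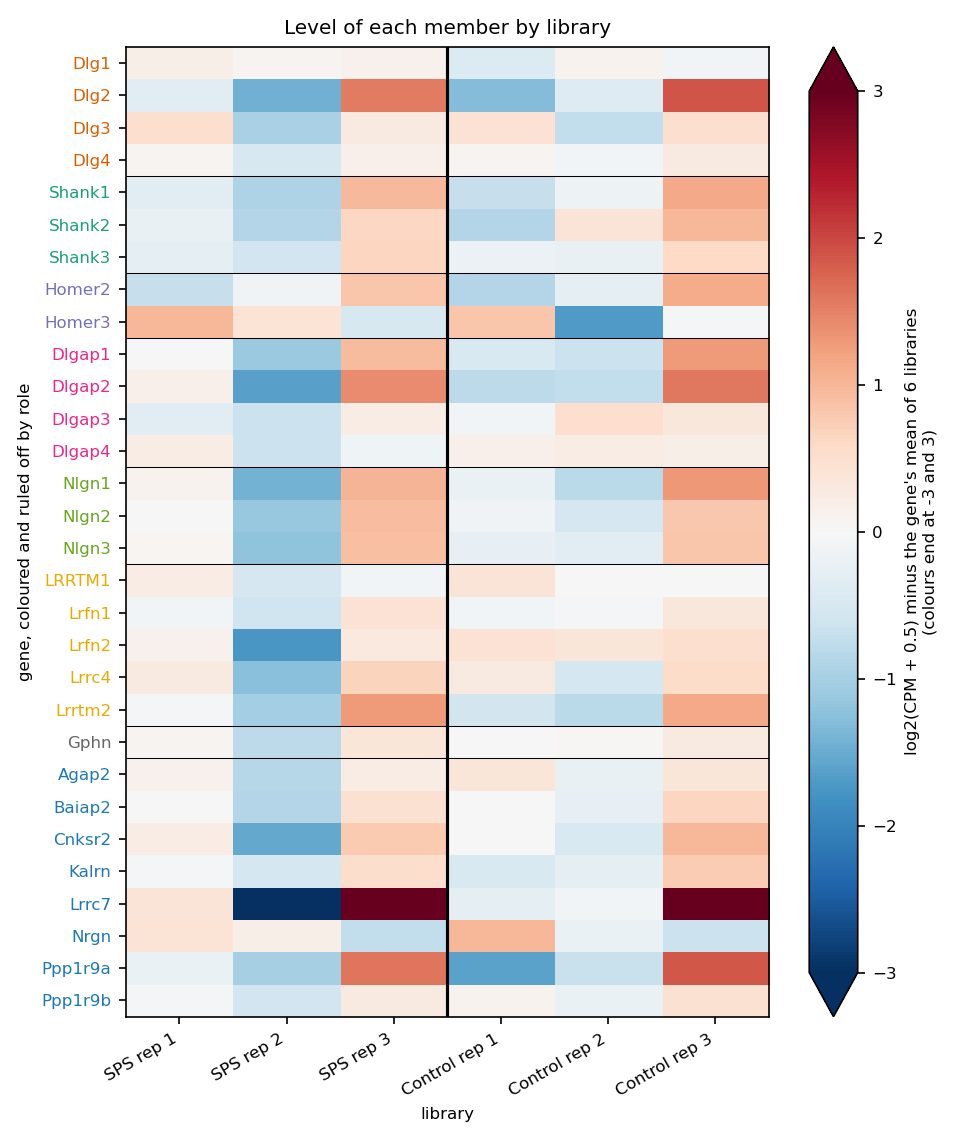
Level of the 30 genes (rows, grouped by role) in the 3 SPS and 3 Control libraries (columns), as log2(CPM + 0.5) minus the gene's mean over 6 libraries. Red is above and blue below that mean. The column of SPS replicate 2 is mostly blue, the columns of SPS replicate 3 and Control replicate 3 are mostly red, and Nrgn runs the other way in the libraries numbered 3.

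The comparison by same-numbered pair gave a different sign in different pairs. In pair 1 SPS was higher for 22 and lower for 8 of the 30 genes, against 50.7% and 49.3% of all genes tested. In pair 2 it was higher for 3 and lower for 27, against 44.9% and 54.4%. In pair 3 it was higher for 8 and lower for 22, against 50.2% and 49.7%. The median log2 ratios were 0.14, −0.62 and −0.18, beside 0.01, −0.10 and 0.00 for all genes tested. The ratios in pair 1 ran up to 1.41 for Ppp1r9a, where SPS replicate 1 had 68.3 CPM and Control replicate 1 had 25.5 CPM. No gene was higher in SPS in all 3 pairs, against 11.6% of all genes tested. Dlg4, Dlgap3, LRRTM1, Lrfn2, Agap2 and Ppp1r9b were lower in all 3, that is 6 of 30 or 20%, against 13.2% of all genes tested. The smallest of these differences, that of Dlg4 in pair 1, was −0.01. With the replicate block edgeR called 0 of the 30 genes, with adjusted p between 0.967 and 0.997, and 0 of all 12441 genes.

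**Figure D4:**
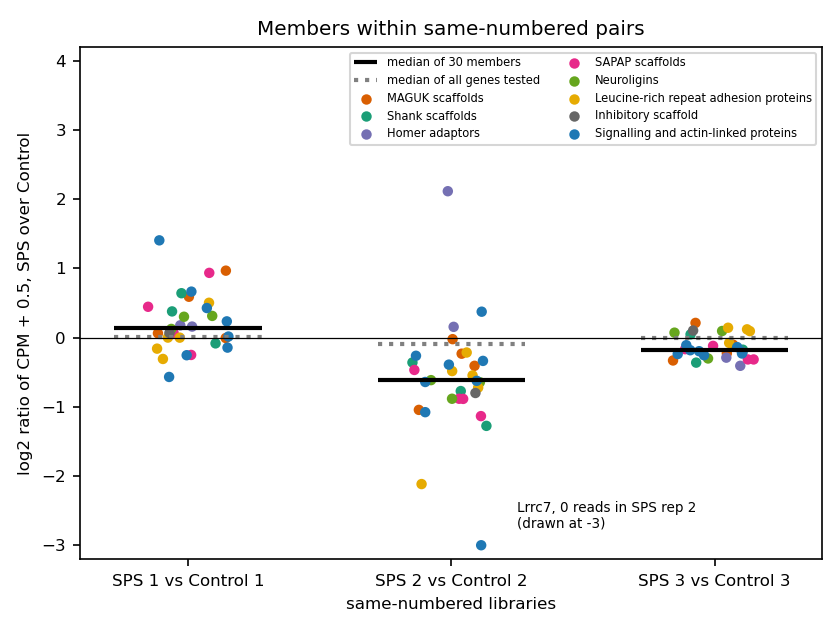
Log2 ratio of CPM + 0.5, SPS over Control, for each of the 30 genes within pairs 1, 2 and 3. Points are genes, coloured by role, solid bars are the medians of the 30 genes (0.14, −0.62 and −0.18) and dotted bars those of all genes tested (0.01, −0.10 and 0.00). Most points lie above 0 in pair 1 and below 0 in pair 2, and Lrrc7 is drawn at the lower edge in pair 2.

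The libraries numbered 3 stood apart from the others in both groups. Both libraries numbered 3 lay above the other 4 for 21 of 30 genes, or 70%, against 27% of all genes tested. The median difference was 0.93 on the log2 scale, beside 0.03 for all genes tested. The largest difference, 26.3-fold for Lrrc7, includes the 0 reads of SPS replicate 2. Next came 6.02-fold for Ppp1r9a, 6.004-fold for Dlg2, 4.76-fold for Dlgap2 and 3.47-fold for Lrrtm2. Dlg1 and Dlgap4 differed little, at 1.013-fold and 1.02-fold. LRRTM1, Homer3 and Nrgn were lower in the libraries numbered 3, at 0.96-fold, 0.76-fold and 0.49-fold. Within each group the values were, for example, 2.196 in SPS and 2.984 in Control for Ppp1r9a and −1.05 in SPS and −1.04 in Control for Nrgn, on the log2 scale. For Homer3 the sign differed, at −1.18 in SPS and 0.37 in Control.

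The difference of the libraries numbered 3 was larger on long loci. Over the 30 genes the locus span, from 8.1 kb for Nrgn to 736 kb for Nlgn1, and the difference of the libraries numbered 3 had a Spearman correlation of 0.63, and over all 12441 genes tested it was 0.44. The genes share the same 6 libraries, so this is a description across genes. The 13 genes with a span of at least 100 kb were higher in the libraries numbered 3 by a median of 3.19-fold, and 12 of the 13 (92.3%) had both of those libraries above the other 4. The 17 shorter genes had a median of 1.49-fold, and 9 of them (52.9%) had both libraries above the rest. For all genes tested the medians were 1.81-fold on long and 0.94-fold on short loci, and both libraries lay above the rest for 54.2% and 21.9%. The spans of Nlgn3, Lrrc4 and Lrrtm2 are shared with other genes and may not be their own; over the other 27 genes the correlation was 0.65. Between SPS and Control the Spearman correlation with span was 0.04 over the 30 genes, and the median log2 fold changes were −0.14 on long and −0.18 on short loci. The summed level of the astrocyte markers, 5 of them with a row, was 4096 CPM in SPS replicate 3 and 4059 CPM in Control replicate 3. It was 2291 and 2640 CPM in the other SPS and 2463 and 2424 CPM in the other Control libraries. Of these 5 markers, 4 were higher in the libraries numbered 3 by mean log2 level. Aqp4 was at 1409 and 1455 CPM there, against 418 to 482 CPM in the others. Aldh1l1 went the other way, at 9.88 and 9.68 CPM against 11.25 to 28.71 CPM. The part of the astrocyte markers in the difference was not tested, and the labels do not say what sets the libraries numbered 3 apart.

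**Figure D5:**
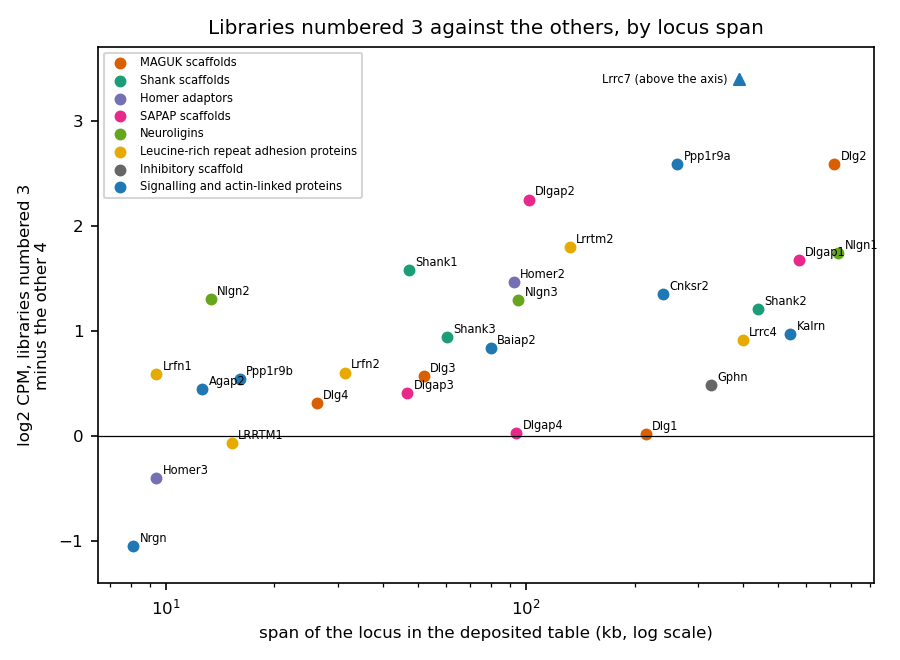
Difference between the libraries numbered 3 and the other 4, in log2 CPM over both groups, on the vertical axis, against the span of the locus in kb on a log axis. Each point is a gene of the set, coloured by role, and Lrrc7, with 0 reads in 1 library, is drawn as a triangle below its value. Long genes such as Dlg2 and Ppp1r9a lie near 2.6, and the shortest, Nrgn, lies at −1.04.

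The proximal promoters of the genes at the ends of this spread are shown to give their base composition. RefSeq on build GRCr8 held a window, 250 bases before to 50 bases after the annotated start, for 23 of the 30 genes. The windows below, chosen after the values were seen, belong to Ppp1r9a (chr4:33988577-33988876, plus strand), Dlg2 (chr1:154539421-154539720, plus strand), Homer3 (chr16:19174549-19174848, minus strand) and Nrgn (chr8:45452368-45452667, minus strand), each 300 bases written 5′ to 3′ with CG dinucleotides in capitals.
Ppp1r9a: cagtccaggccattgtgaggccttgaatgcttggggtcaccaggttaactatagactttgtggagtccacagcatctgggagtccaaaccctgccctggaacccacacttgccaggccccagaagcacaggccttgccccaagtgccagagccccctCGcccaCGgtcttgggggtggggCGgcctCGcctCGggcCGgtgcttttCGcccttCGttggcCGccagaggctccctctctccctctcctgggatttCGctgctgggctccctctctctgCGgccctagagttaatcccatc
Dlg2: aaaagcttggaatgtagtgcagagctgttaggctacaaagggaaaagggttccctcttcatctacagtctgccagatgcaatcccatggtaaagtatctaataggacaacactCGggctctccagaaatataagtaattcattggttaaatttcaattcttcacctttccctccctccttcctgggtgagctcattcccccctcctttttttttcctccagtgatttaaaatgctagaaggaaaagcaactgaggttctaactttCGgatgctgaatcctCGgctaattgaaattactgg
Homer3: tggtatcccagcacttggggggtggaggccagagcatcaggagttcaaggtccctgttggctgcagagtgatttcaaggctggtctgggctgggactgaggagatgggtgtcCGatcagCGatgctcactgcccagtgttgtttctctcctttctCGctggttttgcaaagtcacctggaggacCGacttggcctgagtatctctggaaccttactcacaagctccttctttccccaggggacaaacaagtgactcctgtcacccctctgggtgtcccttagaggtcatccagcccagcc
Nrgn: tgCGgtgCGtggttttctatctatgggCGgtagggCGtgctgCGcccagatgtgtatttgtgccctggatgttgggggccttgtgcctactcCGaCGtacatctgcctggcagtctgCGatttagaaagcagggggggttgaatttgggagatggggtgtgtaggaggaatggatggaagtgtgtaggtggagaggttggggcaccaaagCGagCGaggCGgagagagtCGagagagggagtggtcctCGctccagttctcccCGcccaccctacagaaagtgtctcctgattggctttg
Ppp1r9a and Dlg2, the genes highest in the libraries numbered 3 apart from Lrrc7, had a GC content of 63.0% and 42.3% with 11 and 3 CG dinucleotides. Homer3 and Nrgn, the lowest, had 56.3% and 57.7% with 4 and 14. The median GC content was 57.7% over the 23 windows and 51.7% over all 33469 promoters. Searched on both strands, the GC box GGGCGG was in 8 of the 23 windows, or 34.8%, and in 33.1% of all promoters. The E-box CACGTG was in 1 window (6.42% of all promoters) and TATAAA in 1 window (14.2% of all promoters). None of the 3 motifs contains another.

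Related genes, from a list of 75 adhesion, scaffold and cytoskeletal genes not all particular to the postsynapse, likewise held no call. The table held 71 matching rows, of which 70 were tested, and edgeR called 0 in either direction, with 0 at an unadjusted p under 0.05. With the replicate block it again called 0 at an adjusted p under 0.05, and 2 of the 70 (2.86%) had an unadjusted p under 0.05, against 1.38% of all genes tested. Their median log2 fold change was −0.05, with 29 positive and 41 negative. The median pair ratios were 0.25, −0.33 and −0.08 for pairs 1 to 3, and both libraries numbered 3 lay above the other 4 for 50 of 70, or 71.4%. The remaining relatives of the LRRTM, netrin-G ligand and Lrfn families had fold changes from −0.36 ± 0.38 for Lrfn4 to 0.24 ± 0.41 for Lrfn3 (SE), with Lrrtm3 at 0.08, Lrrtm4 at −0.27, Lrrc4b at −0.28, Lrrc4c at −0.13 and Lrfn5 at −0.23.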

How the data were processed

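Hippocampal RNA of 3 SPS and 3 Control samples was depleted of ribosomal RNA and made into stranded total RNA libraries, per the labels' protocols. The tools named in the submitters' processing notes are CASAVA 1.8 and HISAT2. Those notes name hg19, while the gene identifiers are rat, so coordinates are given as in the table, with no build. The FPKM values were made by the authors and deposited as such. The estimated counts deposited by the authors were not whole: 99.5% to 99.6% of the values above 0 and up to 1000 reads in a library were whole multiples of 1 step to within 0.05 reads, so values were divided by the step and rounded to whole reads.

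Those reads were tested with edgeR 4.0.16 (R 4.3.3): TMM, filterByExpr, a quasi-likelihood model with group as its term, 2-sided p and Benjamini-Hochberg adjustment over 12441 genes. The fit was also run on simulated data with less spread between libraries than here. That run does not show which differences could be seen in these data. The SE was the absolute log2 fold change divided by the square root of F. CPM are TMM-scaled, and differences between libraries used log2(CPM + 0.5). DESeq2 1.42.0, limma 3.58.1 on log2(FPKM + 1), the replicate block, other scalings and filters, and left-out libraries were the alternatives. All members were named. The members, roles and lists were chosen with earlier results of these data known, and symbols were matched without regard to case after the table was seen. Deviations from the group means correlated at 0.41, 0.37 and 0.68 between samples numbered 1, 2 and 3 and at most at 0.16 between others. All 3 exceeded 0.1, so the numbers were taken as pairing the samples, from the data and not from the labels. The deviations sum to 0 within a group, so the 3 correlations are not separate evidence for 3 pairs. Without centring on the group means, SPS replicate 2 correlated at 0.777 with Control replicate 1 and at 0.772 with Control replicate 2. Control replicate 2 correlated more with SPS replicate 1, at 0.874, than with SPS replicate 2. Pair 2 therefore rests on the centred values. The group fit leaves the pairing out, so its SE and the SD within groups also hold the differences between numbers. Some items are not reported here.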

Additional observations from a re-analysis of the deposited data

How the results depend on the processing

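No gene passed at an adjusted p under 0.05 in any of the 20 alternatives, in the set, in the related list or over all genes, and the smallest unadjusted p of a member was 0.0847 (Ppp1r9a without Control replicate 3). The number of all genes at an unadjusted p under 0.05, 42 in the group fit, was 210 in DESeq2, 146 without a filter, 65 in limma on log2(FPKM + 1) and 125 in limma without a filter. It was 172 with the replicate block, 11 without both libraries numbered 2, 100 without both numbered 3, and 11 to 230 with 1 library left out. The cause was not tested.

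The median log2 fold change of the set was −0.17 with the replicate block, −0.17 to −0.13 under the other scalings, filters and units, and −0.59 to 0.23 with 1 library left out. It was −0.08 without both libraries numbered 2, and −0.26 and −0.19 without those numbered 1 and 3, 2 alternatives added after the data were seen. That of the related list ranged from −0.41 to 0.42 with 1 library left out. Of the 30 signs, 19 changed without SPS replicate 2, 18 without Control replicate 3, 4 in limma on FPKM and 2 with the replicate block (Homer2 at 0.02 and Ppp1r9a at 0.27). With 3 libraries a group, the median SE of the 30 genes on the log2 scale was 0.55 in the group fit and 0.24 with the replicate block, which limits the differences that could be seen.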
